A study of Mus musculus with 12 samples.

Results

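The matrix metalloproteinase (MMP) genes Mmp2, Mmp3, Mmp9, Mmp10, Mmp11, Mmp13 and Mmp14 and the genes of their tissue inhibitors, Timp1, Timp2 and Timp3, were followed through the RNA-seq data of MEF cells. These 10 genes were taken by their names, and all 10 were listed in both deposited tables, which share 20445 names. MEF cells are fibroblasts from mouse embryos, here of C57BL/6 origin and spontaneously immortalized. 2MUT cells were a puromycin-selected pool transduced with a retrovirus that encodes a cancer-associated mutant of human IDH2, and Control cells carried the empty vector. A separate experiment compared MEF cells kept for 24 h in 300 μM of a membrane-permeant form of 2-HG, the metabolite that the mutant enzyme produces, 2-HG(+), with cells kept without it, 2-HG(-). The labels state that the 2-HG(-) cells received DMSO for 24 h, whereas the text of the study calls them non-treated. Each group had 3 libraries, and no label says that they came from separate cultures, so p-values measure only the spread between these libraries, which may be technical. Cells with wild-type IDH2 were not analysed here, so an effect of the mutation and one of an expressed IDH2 transgene cannot be told apart.

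MMPs are zinc-dependent enzymes that cut collagens and other proteins of the extracellular matrix, and most of them are secreted as inactive precursors. TIMPs bind the active site of MMPs and block it, and TIMP2 also takes part in the activation of the MMP2 precursor at the cell surface by the membrane-bound enzyme MMP14. Fibroblasts are a main source of MMP2, MMP14 and the TIMPs, whereas transcription of Mmp3, Mmp9, Mmp10 and Mmp13 is known to depend strongly on stimulation by growth factors and cytokines.

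In 2MUT cells, Timp2, Timp3, Mmp2 and Mmp11 were higher and Mmp14 was lower than in Control, and Mmp9 reads were almost absent. These 5 called genes stand beside 33.8% of all tested genes that were called. With 2-HG, the 5 genes Mmp2, Mmp9, Mmp11, Timp2 and Timp3 were lower, beside 16.7% of all tested genes, and none of the 10 was called higher, with 0 also by edgeR and DESeq2 on the recovered reads and 0 at an unadjusted p under 0.05 (limma), beside 16.1% of all tested genes that were called higher. Thus Mmp2, Mmp11, Timp2 and Timp3 were called in opposite directions in the 2 experiments. The difference between their changes passed the test for each of the 4, as it did for 39.4% of all genes tested in both. Of these 4 genes, only Timp3 kept both calls with any 1 library left out, and only Mmp11 did in an unmoderated per-gene test. Timp1 passed in neither experiment. Mmp3, Mmp10 and Mmp13 had at most 1 read in the 6 libraries of either table.

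The sequences just before the start sites differed between the 3 genes with at most 1 read and the others examined, which did not include Mmp2 and Mmp9. The sequences are printed for these 3 genes and for 3 of the genes that changed in opposite directions. They are the 100 bases before the start site given by RefSeq for GRCm38.p6, written 5′ to 3′ on the strand of the gene. Capitals mark matches to 4 motifs, searched on both strands, and no match overlapped one of another motif. The AP-1 site, which Fos and Jun proteins bind, was searched as TGANTCA. For the PEA3 site of ETS factors the letters were AGGAAG. The TATA box, which helps to place the start of transcription, was read as TATAAA. The GC box, a site of SP1 and related factors, was GGGCGG.
Mmp3 (chr9:7445722-7445821, plus strand): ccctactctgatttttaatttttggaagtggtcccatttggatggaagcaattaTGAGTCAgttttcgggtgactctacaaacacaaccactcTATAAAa
Mmp10 (chr9:7502242-7502341, plus strand): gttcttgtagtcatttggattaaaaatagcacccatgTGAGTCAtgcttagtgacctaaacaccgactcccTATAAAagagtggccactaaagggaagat
Mmp13 (chr9:7272414-7272513, plus strand): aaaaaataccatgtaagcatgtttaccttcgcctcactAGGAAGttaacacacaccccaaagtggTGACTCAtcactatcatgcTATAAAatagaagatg
Mmp11 (chr10:75932503-75932602, minus strand): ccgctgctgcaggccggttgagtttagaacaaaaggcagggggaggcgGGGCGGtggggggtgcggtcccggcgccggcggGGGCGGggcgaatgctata
Timp2 (chr11:118355412-118355511, minus strand): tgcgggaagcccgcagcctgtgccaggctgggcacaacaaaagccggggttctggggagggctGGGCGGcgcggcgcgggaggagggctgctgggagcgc
Timp3 (chr10:86300312-86300411, plus strand): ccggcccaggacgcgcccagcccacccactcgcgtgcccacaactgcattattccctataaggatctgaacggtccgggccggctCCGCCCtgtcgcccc

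Each of the 3 stretches of Mmp3, Mmp10 and Mmp13 held an AP-1 match and a TATA match, and none of the other 5 stretches examined did. The AP-1 match lay at bases 46 to 40 before the start in Mmp3, 63 to 57 in Mmp10 and 35 to 29 in Mmp13. AP-1 matches were present in 2.73% and TATA matches in 5.56% of the 32851 promoters of the table over the same 100 bases. The GC box was found in Mmp11, Mmp14, Timp1, Timp2 and Timp3 and in none of the other 3, against 24.7% of all promoters. Mmp11 held 2 such matches and so did Mmp14, where they adjoin. The GC content of the 100 bases was 38% in Mmp3, 41% in Mmp10 and 38% in Mmp13, and between 54% in Mmp14 and 75% in Timp2 in the other 5. PEA3 matches, present in 13.8% of promoters over 100 bases, were found there in Mmp13 and Timp1. A match describes the letters and not a bound site. The table held 8 of the 10 genes and had no entry for Mmp2 and Mmp9. For Mmp11, Timp2 and Timp3, GENCODE M21 places the 5′ end of the gene further upstream than this start site.

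**Figure D1:**
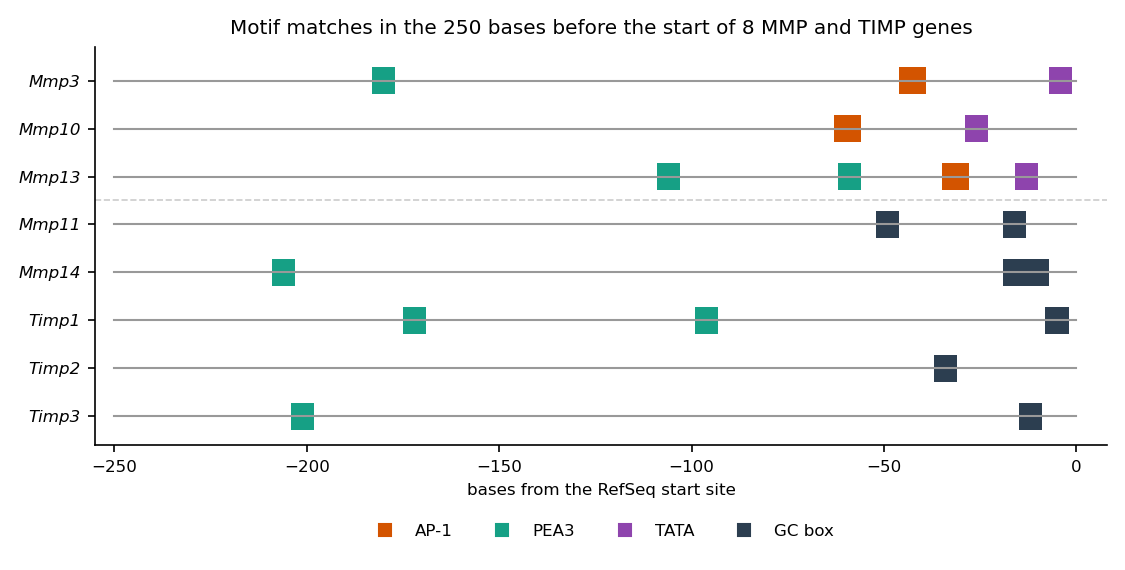
Matches to 4 motifs in the 250 bases before the RefSeq start site of 8 genes, drawn to scale, with the distance from the start site in bases on the x axis. The dashed line separates the 3 genes with at most 1 read in a table, each with an AP-1 and a TATA match, from the other 5, each with a GC box in the last 100 bases.

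Values are RPM, the reads of a gene per 1000000 counted reads, from Ion AmpliSeq libraries, in which 1 short target of each transcript is amplified. RPM therefore compare a gene between libraries and not 1 gene with another. Reads on genes numbered from 6472439 to 7313602 per library in the 2MUT experiment and from 14959318 to 18363768 in the 2-HG experiment, so 3 reads, taken as the limit of detection, were worth between 0.41 and 0.464 RPM and between 0.163 and 0.201 RPM. Such limits and the counting intervals given here cover counting error only. Some libraries stood apart from the others of their group. Among genes of at least 20 RPM in the highest library of the group, 59 of 6650 lay more than 2 log2 units below both other libraries in Control 3, 10 of 6556 in 2MUT 2 and 9 of 6633 in 2-HG(+) 2, against at most 5 in each of the other 9 libraries. Timp2 was 1 of the 10 in 2MUT 2. This way of looking for such libraries was chosen after the values were seen. In bulk RNA, fewer cells of a type and less RNA per cell cannot be told apart.

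The cells carried fibroblast markers, whose summed level was lower in 2MUT than in Control and lower with 2-HG than without it, with no overlap of the groups. Over 10 markers it ranged from 15040 to 17010 RPM in Control and from 13378 to 13822 RPM in 2MUT, and from 21646 to 23290 RPM in 2-HG(-) and from 15256 to 16280 RPM in 2-HG(+). In 2MUT, 7 of the 9 tested markers were called lower and 1 higher, while 17.3% and 16.5% of all tested genes were, and with 2-HG 5 were lower and 1 higher, against 16.7% and 16.1%. In 2MUT the counts fell to 5 lower without Control 3, 2MUT 2 or 2MUT 3 and to 6 without each other library, Pdgfrb, a growth factor receptor, losing its call each time, and 2 were higher without Control 3 and none without 2MUT 3. Col3a1, a fibrillar collagen chain, had a log2 fold change of -2.33 in 2MUT and -1.35 with 2-HG, and Dcn, a matrix proteoglycan, -0.86 and -1.24 (limma, Benjamini-Hochberg adjusted p = 5.5e-07, 1.3e-05, 8.3e-05 and 3.4e-05). Other markers did not follow this pattern. Thy1, a surface protein of fibroblasts, fell in 2MUT from 80.4 to 24.2 RPM (log2 fold change -1.71, adjusted p = 1.4e-05) and rose with 2-HG from 2.76 to 5.23 RPM (0.71, adjusted p = 0.014). Fn1, which encodes fibronectin, rose in 2MUT (0.43, adjusted p = 0.011), a call lost without 2MUT 3, and had a log2 fold change of -0.08 with 2-HG (adjusted p = 0.57). The part of these shifts in the results on MMPs and TIMPs was not tested. Markers of other cells that could bring in MMPs were summed as well. The 6 neutrophil markers summed to at most 2.01 RPM in any library, with S100a9 and Mpo at 0 in the 2MUT experiment and Ly6g, Elane and Csf3r at 0 in the 2-HG experiment. That sum was 0.826 to 2.01 RPM in 2MUT against 0.137 to 0.444 RPM in Control, and 0.065 to 0.132 RPM in 2-HG(+) against 0.599 to 0.66 RPM in 2-HG(-), so it moved with the group in both experiments, and its part in the results was not tested. The macrophage markers summed to between 8.26 and 14.7 RPM, most of it Cd68. In the 2MUT experiment the sums overlapped, at 8.26 to 12.6 RPM in Control and 9.91 to 11.1 RPM in 2MUT. Cd68 had means there of 9.25 RPM in Control and 6.62 RPM in 2MUT and was not called (log2 fold change -0.39, limma, Benjamini-Hochberg adjusted p = 0.19). With 2-HG, Cd68 fell from 12.4 to 8.46 RPM (-0.51, adjusted p = 0.021), a call lost without 2-HG(-) 1, 2-HG(-) 2 or 2-HG(+) 2, and its part in the fall of Mmp9 was not tested. Ptprc was at 0 in the 2-HG experiment, where the sum was 12.2 to 14.7 RPM in 2-HG(-) and 8.93 to 11.1 RPM in 2-HG(+). Lyz2, a lysozyme of macrophages, had means of 0.56 RPM in Control and 2.62 RPM in 2MUT, and it passed the filter of 1 RPM only through 2MUT. The epithelial markers reached at most 0.878 RPM in sum, in 2MUT, and measured 0.468 to 0.66 RPM in 2-HG(-) and 0.13 to 0.301 RPM in 2-HG(+). The sum was at most 3.09 RPM for the endothelial markers.

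Differences were tested with limma on log2(RPM + 1) for those genes whose mean reached 1 RPM over the 6 libraries compared, and p-values were adjusted over all these genes by the method of Benjamini and Hochberg. A gene is called higher or lower at an adjusted p under 0.05. Log2 fold changes are on this scale and come out too small for genes with low values. In the 2MUT experiment 6 of the 10 genes passed the filter, and 5 of them were called, 4 higher and 1 lower, while 33.8% of all 11065 tested genes were called, 16.5% higher and 17.3% lower. With any 1 library left out, 3 of them were called higher in place of 4, and without a 2MUT library 2 were called lower, since Mmp9 then passed the filter, through Control alone, so nothing is read from that second call. The libraries of 2MUT and Control did not overlap for the 5 called genes, against 47.5% of all tested genes. In the 2-HG experiment 7 of the 10 passed, and 5 were called, all lower, while 32.8% of 10384 genes were called, 16.1% higher and 16.7% lower. Between 4 and 5 were called lower with each library left out. The libraries did not overlap for 4 of the 7, all lower, against 24.1% of genes that lay apart in that direction and 22.2% in the other. An unmoderated per-gene test is the kind used in the study. With it, the calls that passed were those of Mmp11 and Timp3 in 2MUT and of Mmp9 and Mmp11 with 2-HG. Mmp9 in 2MUT was under the filter and so was not tested. The study itself names Mmp9 among genes down-regulated by both the IDH2 mutant and 2-HG. The median log2 fold change of the tested MMPs and TIMPs was 0.46 in 2MUT, against 0.01 over all tested genes, and -0.70 with 2-HG, against -0.02.

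**Figure D2:**
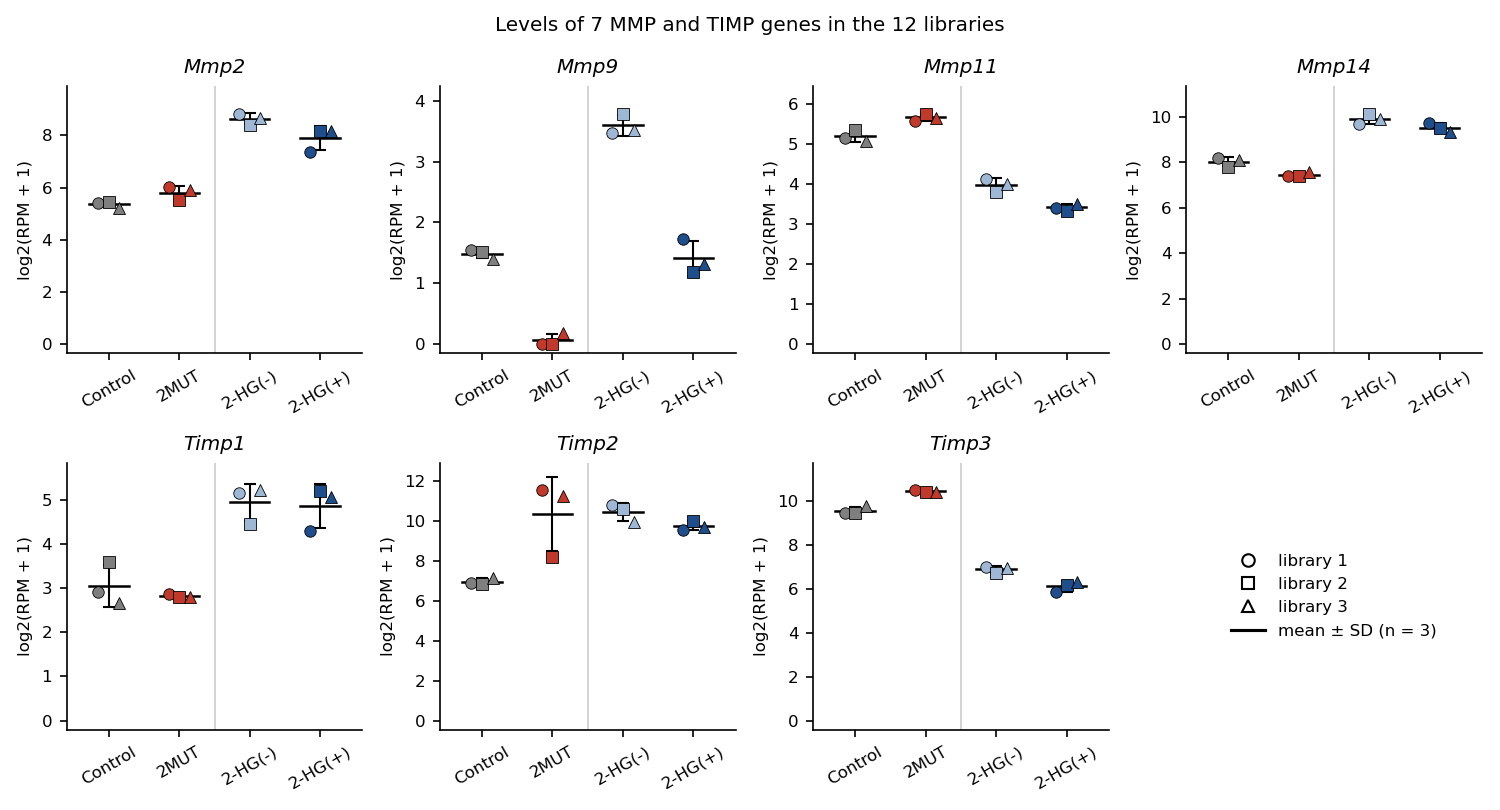
log2(RPM + 1) of 7 MMP and TIMP genes in each of the 12 libraries, grouped as Control, 2MUT, 2-HG(-) and 2-HG(+), with the mean and SD of 3 libraries in black. The grey line parts the 2 experiments, which were deposited as separate tables. Timp2 in 2MUT is split, with libraries 1 and 3 at 3013 and 2490 RPM and library 2 at 294 RPM.

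Among the secreted gelatinases, which digest denatured collagen and basement membrane collagen, Mmp2 (chr8:92827291-92853420 in GRCm38) was present in every library. It measured 42.0, 42.2 and 36.6 RPM in Control and 63.2, 44.8 and 58.3 RPM in 2MUT. All 3 libraries of 2MUT lay above Control, but 2MUT 2 did so only narrowly. The mean rose from 40.3 ± 3.15 to 55.4 ± 9.53 RPM (SD, n = 3 each), which is 0.44 ± 0.15 (SE) in log2 fold change (limma, Benjamini-Hochberg adjusted p = 0.038). This call was lost when any 1 of 5 libraries was left out, Control 1, 2 or 3 or 2MUT 1 or 3, with adjusted p between 0.055 and 0.15 and log2 fold changes between 0.34 and 0.47. In the other experiment Mmp2 measured 456, 341 and 408 RPM in 2-HG(-) and 164, 285 and 290 RPM in 2-HG(+). The groups did not overlap, and 2-HG(+) 1 lay well below the other two. The mean fell from 402 ± 57.8 to 246 ± 71.5 RPM (SD, n = 3 each), which is -0.74 ± 0.21 (SE) in log2 fold change (limma, Benjamini-Hochberg adjusted p = 0.022). Without 2-HG(+) 1 the log2 fold change was -0.47 and still passed, whereas the call was lost without 2-HG(-) 1 (-0.64, adjusted p = 0.077) and without 2-HG(-) 3 (-0.72, adjusted p = 0.073).

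Mmp9, the other gelatinase (chr2:164940780-164955850), was low in all groups and lowest in 2MUT. In Control it measured 1.92, 1.85 and 1.64 RPM, 38 reads in all. In 2MUT 1 and 2MUT 2 no read was found, and 2MUT 3 had 1 read, 0.138 RPM, so the groups did not overlap. Its mean over the 6 libraries, 0.926 RPM, lay under the filter, and Mmp9 was therefore not among the genes tested. The level in 2MUT was 0.027 times that in Control, with an exact 95% counting interval from 0.000666 to 0.16. Without the filter it was called lower by limma (Benjamini-Hochberg adjusted p = 0.00029), and with edgeR and DESeq2 on the recovered reads, a choice made after the values were seen, the adjusted p was 2.2e-05 and 0.0021. In the 2-HG experiment Mmp9 measured 10.1, 12.8 and 10.5 RPM in 2-HG(-) and 2.31, 1.26 and 1.50 RPM in 2-HG(+). All 3 libraries with 2-HG lay far below those without it, and the totals were 79 reads against 553. The mean in 2-HG(-) was 6.59 times that in 2-HG(+), and the log2 fold change of -2.19 ± 0.18 (SE, limma, Benjamini-Hochberg adjusted p = 2.6e-05) was number 47 of the 10384 tested genes counted from the largest fall. It ranged from -2.35 to -2.07 with each library left out in turn.

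Mmp11 (chr10:75923222-75936496), also called stromelysin-3, is activated inside the cell by furin and cuts matrix proteins poorly. It measured 34.6, 39.9 and 33.1 RPM in Control and 47.3, 53.4 and 49.7 RPM in 2MUT. The 3 libraries of each group were close together and did not overlap with the other group. The mean rose from 35.9 ± 3.56 to 50.1 ± 3.11 RPM (SD, n = 3 each), which is 0.47 ± 0.13 (SE) in log2 fold change (limma, Benjamini-Hochberg adjusted p = 0.014), and the call was lost only without 2MUT 2 (0.43, adjusted p = 0.063) among the libraries left out in turn. In the other experiment it measured 16.6, 13.0 and 15.2 RPM in 2-HG(-) and 9.65, 9.14 and 10.4 RPM in 2-HG(+). Again the groups did not overlap, but with the treated cells now below the others. The mean fell from 14.9 ± 1.77 to 9.73 ± 0.628 RPM (SD, n = 3 each), which is -0.57 ± 0.14 (SE) in log2 fold change (limma, Benjamini-Hochberg adjusted p = 0.011). Furin, which encodes the protease that activates the precursors of MMP11 and MMP14, rose in 2MUT from 119 to 230 RPM, which is 0.94 ± 0.15 (SE) in log2 fold change (adjusted p = 0.00066), and with 2-HG had a log2 fold change of -0.47 that did not pass (adjusted p = 0.098).

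Mmp14 (chr14:54431612-54445364), which encodes the membrane-type enzyme that activates the MMP2 precursor, was the 1 tested gene of the group that fell in 2MUT. It measured 288, 221 and 268 RPM in Control and 168, 167 and 186 RPM in 2MUT. Every library of 2MUT lay below every library of Control. The mean fell from 259 ± 34.6 to 174 ± 10.6 RPM (SD, n = 3 each), which is -0.57 ± 0.11 (SE) in log2 fold change (limma, Benjamini-Hochberg adjusted p = 0.0029), and the call held with each library left out. With 2-HG the values spread more, at 819, 1120 and 938 RPM in 2-HG(-) and 844, 714 and 649 RPM in 2-HG(+). The groups overlapped, since 2-HG(+) 1 lay above 2-HG(-) 1. The means were 959 ± 151 and 736 ± 99.1 RPM (SD, n = 3 each), and the log2 fold change of -0.38 (95% interval from -0.69 to -0.07 before adjustment) did not pass after adjustment over all genes (limma, adjusted p = 0.065). It passed without 2-HG(-) 1 (-0.49, adjusted p = 0.038) and without 2-HG(+) 1 (-0.48, adjusted p = 0.029), the libraries that overlapped.

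Timp1 (chrX:20870166-20874735), an inhibitor that is induced by growth factors and cytokines, passed the test in neither experiment. In Control it measured 6.51, 11.0 and 5.33 RPM, and in 2MUT 6.34, 6.00 and 5.92 RPM. Control 2 was high among the 6 libraries, and the 2MUT libraries lay between Control 3 and Control 1. The log2 fold change was -0.23, with a 95% interval from -0.76 to 0.30 (limma, Benjamini-Hochberg adjusted p = 0.50), and became 0.039 without Control 2. In the other experiment the values were 34.7, 20.9 and 36.3 RPM in 2-HG(-) and 18.5, 35.9 and 32.6 RPM in 2-HG(+). In each group 1 library lay low, 2-HG(-) 2 and 2-HG(+) 1, and the groups overlapped. The log2 fold change was -0.09, with a 95% interval from -0.68 to 0.50 (limma, adjusted p = 0.82), and turned positive without 2-HG(-) 1 (0.017), 2-HG(-) 3 (0.047) or 2-HG(+) 1 (0.19). No direction could be read from Timp1.

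Timp2 (chr11:118301069-118355740), the inhibitor that also bridges MMP14 and the MMP2 precursor, had the largest log2 fold change of the 6 tested genes in 2MUT, with libraries far apart. It measured 118, 114 and 142 RPM in Control, and 3013 RPM in 2MUT 1, 294 RPM in 2MUT 2 and 2490 RPM in 2MUT 3. All 3 libraries of 2MUT lay above Control, but 2MUT 1 and 2MUT 3 were 24.1 and 19.9 times the Control mean, whereas 2MUT 2 was 2.35 times the Control mean and 2.07 times the highest Control library. The mean of 2MUT 1 and 2MUT 3 was 9.35 times the value of 2MUT 2. Over the group this gave 1932 ± 1443 RPM against 125 ± 15.2 RPM (SD, n = 3 each), and the SD was 74.7% of the 2MUT mean. The log2 fold change was 3.38 (standard error 0.65, 95% interval from 1.96 to 4.80, limma, Benjamini-Hochberg adjusted p = 0.0022), number 8 of 11065 from the largest rise. Without 2MUT 2 it was 4.45 (standard error 0.13, adjusted p = 8.7e-08), and without 2MUT 1 or 2MUT 3 it was 2.77 and 2.91. The rise therefore passed with any 1 library left out, while its size rested on which libraries were used, and the unmoderated test gave an adjusted p of 0.11. Timp2 in 2MUT 2 is among the 10 genes that lay far below both other libraries there, and the cause was not tested.

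With 2-HG, Timp2 measured 1819, 1559 and 1001 RPM in 2-HG(-) and 756, 1031 and 844 RPM in 2-HG(+). The groups overlapped, since 2-HG(+) 2 lay above 2-HG(-) 3. The mean fell from 1460 ± 418 to 877 ± 140 RPM (SD, n = 3 each), and the log2 fold change of -0.70 ± 0.21 (SE, limma, Benjamini-Hochberg adjusted p = 0.027) passed in spite of the overlap. Without 2-HG(-) 1, 2-HG(-) 2, 2-HG(+) 1 or 2-HG(+) 3 the call was lost, with log2 fold changes between -0.68 and -0.52 and adjusted p between 0.061 and 0.091. The fall of Timp2 with 2-HG was thus close to the limit of what these libraries could show.

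Timp3 (chr10:86300372-86349506), the inhibitor that stays bound to the matrix and also blocks some ADAM proteases, changed in both experiments with no overlap of the groups. It measured 701, 706 and 883 RPM in Control and 1465, 1402 and 1367 RPM in 2MUT. Every library of 2MUT lay above every library of Control. The mean rose from 763 ± 104 to 1411 ± 49.8 RPM (SD, n = 3 each), which is 0.89 ± 0.10 (SE) in log2 fold change (limma, Benjamini-Hochberg adjusted p = 8.2e-05). In the other experiment it measured 129, 105 and 124 RPM in 2-HG(-) and 56.5, 72.5 and 80.1 RPM in 2-HG(+). Here every library with 2-HG lay below every library without it. The mean fell from 120 ± 12.7 to 69.7 ± 12.0 RPM (SD, n = 3 each), which is -0.78 ± 0.14 (SE) in log2 fold change (limma, Benjamini-Hochberg adjusted p = 0.0026). Both calls held with each library left out, with ranges from 0.84 to 1.00 and from -0.89 to -0.64.

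Mmp13, a collagenase, and the stromelysins Mmp3 and Mmp10 lie within 238 kb of each other on chromosome 9 (chr9:7272514-7510240 in GRCm38). Mmp3 had no read in any of the 12 libraries. For Mmp10, 1 read was found in 2-HG(-) 1, 0.054 RPM, and for Mmp13, 1 read in 2MUT 2, 0.146 RPM. No library thus reached the limit of 3 reads, which was worth at most 0.464 RPM in the 2MUT experiment and at most 0.201 RPM in the 2-HG experiment, and lower levels of these 3 genes were not detectable in a single library at this depth. No fold change is given for them, and how well their targets are amplified was not tested.

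**Figure D3:**
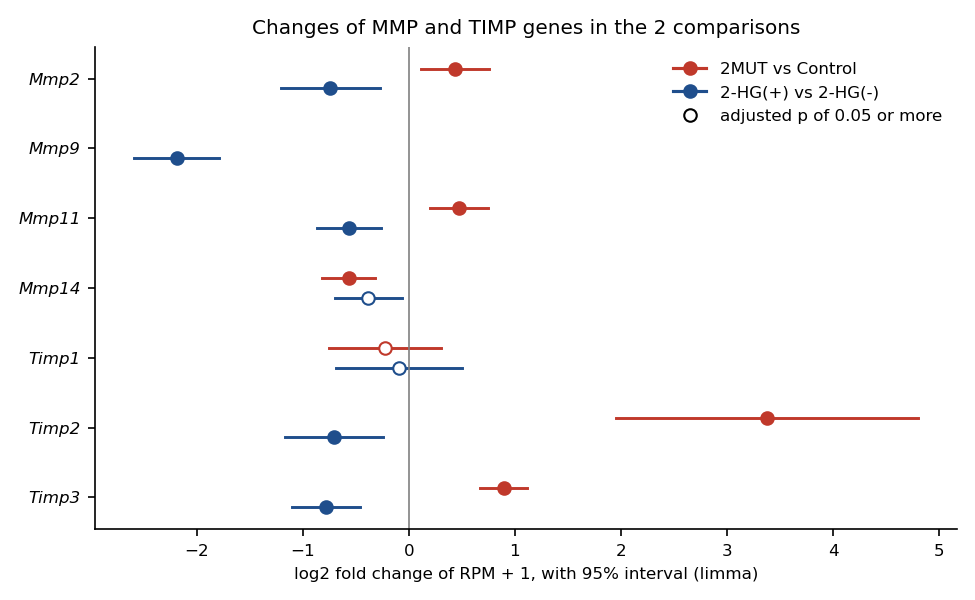
Log2 fold changes of RPM + 1 with 95% intervals from limma in the 2MUT experiment (red) and the 2-HG experiment (blue), with open points where the adjusted p was 0.05 or more. Mmp2, Mmp11, Timp2 and Timp3 lie to the right of 0 in 2MUT and to the left of 0 with 2-HG, and Mmp9 in 2MUT is missing because it was under the filter.

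Whether the genes responded differently to the IDH2 mutant and to 2-HG was tested as the difference between the 2 changes over the 12 libraries, each change taken within its own experiment, for 9611 genes tested in both. Of the 6 MMP and TIMP genes tested in both, 4 passed, all with the higher change in 2MUT, while 39.4% of all these genes passed, 19.9% in that direction and 19.5% in the other. The difference was 4.08 for Timp2 (standard error 0.86, limma, Benjamini-Hochberg adjusted p = 0.0020) and 1.67 for Timp3 (standard error 0.19, adjusted p = 1.2e-05). For Mmp2 it was 1.18 (standard error 0.28, adjusted p = 0.0044) and for Mmp11 1.04 (standard error 0.18, adjusted p = 0.00044). These 4 genes are those with a rise in one experiment and a fall in the other. Mmp14 and Timp1 did not pass, with differences of -0.19 (95% interval from -0.60 to 0.22) and -0.14 (95% interval from -0.97 to 0.70), which leaves room for differences of either sign.

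The reference cells of the 2 experiments also differed in these genes. The mean in 2-HG(-) was 11.7 times that in Control for Timp2, 9.98 times for Mmp2, 6.18 times for Mmp9, 4.03 times for Timp1 and 3.71 times for Mmp14. For Timp3 and Mmp11 it was the other way around, and Control was 6.38 and 2.40 times 2-HG(-). Timp2 in 2MUT 1 and 2MUT 3, at 3013 and 2490 RPM, thus exceeded the highest 2-HG(-) library, at 1819 RPM, while all Control libraries lay under the lowest 2-HG(+) library, at 756 RPM. The experiments were deposited as separate tables that differ in depth and in their sets of entries, so these ratios were not tested.

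**Figure D4:**
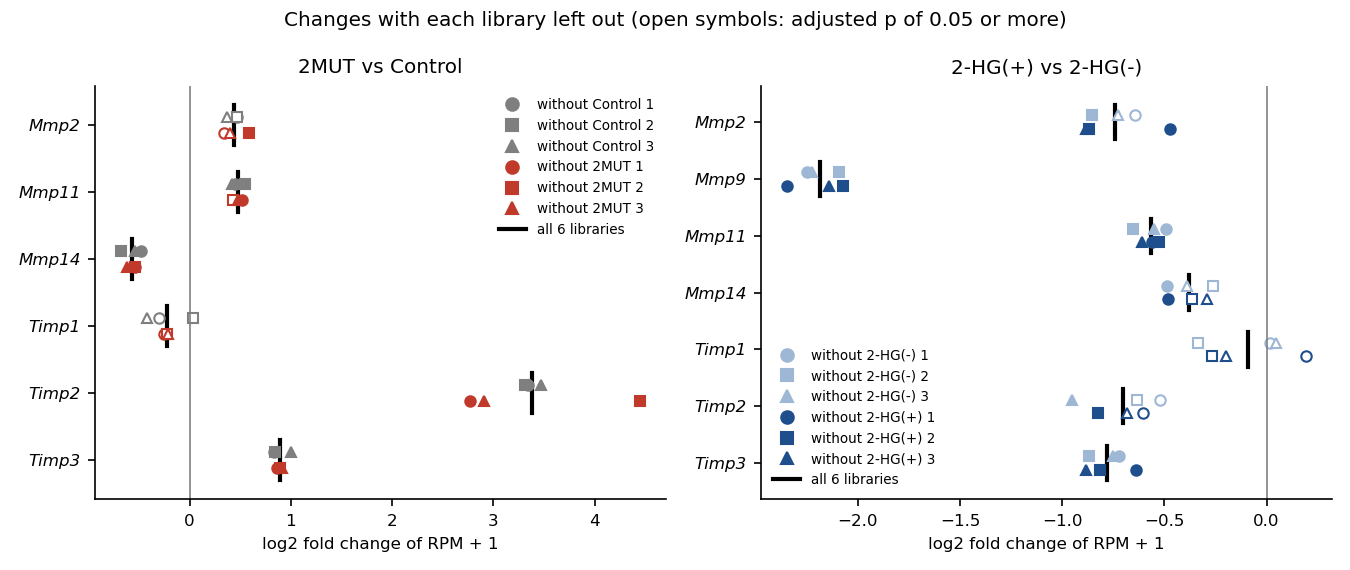
Log2 fold changes of RPM + 1 in the 2 comparisons with all 6 libraries (black bars) and with each library left out (symbols, open where the adjusted p was 0.05 or more). Timp2 in 2MUT moves from 3.38 to 4.45 without 2MUT 2, and Timp1 crosses 0 in both comparisons.

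The genes most like Timp2 and Timp3 over the 12 libraries were sought among 6728 genes of at least 10 RPM in both tables, after each gene was centred on its mean in each table. The pattern of Timp2 was most like that of Gxylt2 (Pearson's r = 0.93), Col12a1, a collagen of the fibril-associated kind (0.93), and Lrrc73 (0.92). Their own log2 fold changes were 0.58, 0.63 and 0.75 in 2MUT, against 3.38 for Timp2, and -0.08, -0.36 and -0.11 with 2-HG, against -0.70. For Timp3 they were Lats2, a kinase of the Hippo pathway, Steap2 and Phf21a, with r = 0.99, 0.99 and 0.98. These rose in 2MUT by log2 fold changes of 0.73, 0.69 and 0.60 and fell with 2-HG by 0.62, 0.67 and 0.51. The libraries of a group share their treatment, so these values describe the pattern and carry no test.

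Other genes around MMP activity were counted from lists, and each count stands beside the 16.5% of all tested genes called higher and 17.3% called lower in 2MUT, and the 16.1% and 16.7% with 2-HG. With so few genes in a list, nothing is read from its share. Of 16 further MMPs, 6 were tested in 2MUT, with 2 called higher, 1 lower and a median log2 fold change of 0.39. Mmp19 rose from 78.1 to 103 RPM (log2 fold change 0.41, adjusted p = 0.028), the membrane-anchored Mmp17 rose from 3.82 to 6.57 RPM (0.69, adjusted p = 0.043) and Mmp15 fell from 2.03 to 0.739 RPM (-0.80, adjusted p = 0.034). Mmp15 passed the filter only through Control, and no gene of the list was called when any 1 of Control 1, 2MUT 2 and 2MUT 3 was left out. The call of Mmp17 held only without Control 3 among the libraries left out in turn, and it was lost in edgeR (adjusted p = 0.056) and in the unmoderated test (adjusted p = 0.12). Mmp19 lost its call without Control 1 or any 2MUT library and in the unmoderated test (adjusted p = 0.12). Mmp16 measured 32.0, 28.1 and 1.64 RPM in Control, so that Control 3 lay far below the other two, and its log2 fold change of 0.84 (adjusted p = 0.40) became -0.35 (adjusted p = 0.11) without Control 3. With 2-HG 3 were tested and all 3 were called lower, with a median of -0.59. They were Mmp19 (56.3 to 32.3 RPM, log2 fold change -0.78, adjusted p = 0.0031), Mmp16 (26.7 to 17.4 RPM, -0.59, adjusted p = 0.0060) and Mmp28 (12.0 to 8.27 RPM, -0.48, adjusted p = 0.029). Mmp28 lost its call without 2-HG(-) 2, 2-HG(-) 3, 2-HG(+) 2 or 2-HG(+) 3. Mmp19 therefore passed in opposite directions in the 2 experiments, and its difference between the changes was 1.19 (limma, Benjamini-Hochberg adjusted p = 0.00045).

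Of 9 other inhibitors, activators and surface partners of MMPs, 7 were tested in 2MUT, with 2 higher and 2 lower and a median of -0.19. Timp4, the remaining member of the inhibitor family, had 93 reads in Control and 1 read in 2MUT, 0.011 times the Control level (exact 95% counting interval from 0.000276 to 0.063, limma adjusted p = 7.8e-05). A2m, a plasma protein that traps proteases, had no read in Control and 72 reads in 2MUT, at least 24.6-fold higher when Control is set to 3 reads over the group. Both passed the filter only through the group where they were high, so nothing is read from their calls, and with the filter at 10 RPM 1 gene of the list was higher and 1 lower. Without 2MUT 3 the count was 1 higher and 2 lower, and without Control 1 it was 2 higher and 3 lower. Cd44, a surface receptor that docks MMP9 and MMP14, fell from 317 to 182 RPM (log2 fold change -0.79, adjusted p = 7.4e-05). Reck, a membrane-anchored MMP inhibitor, measured 4.17 RPM in 2MUT 1 against 52.9 and 40.5 RPM in 2MUT 2 and 2MUT 3, and its log2 fold change of -0.57 (adjusted p = 0.53) became 0.49 without 2MUT 1 (adjusted p = 0.055). With 2-HG, 5 were tested and 2 were called lower, Reck (13.0 to 7.61 RPM, log2 fold change -0.71, adjusted p = 0.0060) and Lrp1, an endocytic receptor that clears MMP and TIMP complexes (167 to 105 RPM, -0.67, adjusted p = 0.0037). The median was -0.47, and without 2-HG(+) 1 the count was 1 higher and 3 lower.

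In the plasminogen activator system, whose product plasmin activates several MMP precursors, 5 of 9 genes were tested in each experiment. In 2MUT none was called by limma, with 0 also by edgeR and DESeq2 and 1, Plau with a log2 fold change of -0.60, at an unadjusted p under 0.05, and the median was -0.17. Without Control 3, Plau, which encodes urokinase, was called lower (-0.78, limma, Benjamini-Hochberg adjusted p = 0.023), and without the filter 1 gene was called higher, Serpinf2 (0.46, adjusted p = 0.034), which encodes a plasmin inhibitor. With 2-HG, Plaur, the urokinase receptor, rose from 23.2 to 43.3 RPM (log2 fold change 0.87, adjusted p = 0.00058). Plat, the tissue-type activator, fell from 244 to 202 RPM (-0.27, adjusted p = 0.038), a call lost with any 1 library left out. The median of the list was -0.16.

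Of 26 ADAM and ADAMTS proteases, which are relatives of the MMPs and only in part blocked by TIMP3, 17 were tested in each experiment. In 2MUT 6 were higher and 6 lower, with a median of 0.07, and without 2MUT 3 only 3 were higher. Adamts1 fell from 245 to 104 RPM (log2 fold change -1.23, adjusted p = 7.6e-06) and Adamts4 from 182 to 84.6 RPM (-1.09, adjusted p = 3.4e-05), both of which cut proteoglycans. Adamts10 (17.4 to 6.36 RPM, -1.33, adjusted p = 0.00014) and Adamts16 (3.84 to 1.36 RPM, -1.04, adjusted p = 0.0043) fell as well. With 2-HG 2 were higher and 6 lower, with a median of -0.32. Adamts5, an aggrecan-cutting enzyme, fell from 132 to 36.8 RPM (-1.82, adjusted p = 1.1e-05), Adamts9 from 5.23 to 2.57 RPM (-0.80, adjusted p = 0.0016) and Adam10 from 230 to 147 RPM (-0.65, adjusted p = 0.0041), while Adam8 rose from 1.32 to 2.82 RPM (0.71, adjusted p = 0.0050). In 2MUT, Adamts9 (0.97, limma adjusted p = 0.0021) and Adam10 (0.70, limma adjusted p = 0.00074) were called higher. Adamts7 (0.90 in 2MUT and -0.61 with 2-HG) and Adamts2 (0.56 and -0.64) also passed in opposite directions. The 2MUT call of Adamts2 was lost without Control 1, Control 2, 2MUT 2 or 2MUT 3. Adamts14 fell in 2MUT (-0.61) and rose with 2-HG (0.47), and Adamts1 and Adamts5 were called lower in both.

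The last list held AP-1, ETS, RUNX, NF-κB and SP1 factors with known sites in MMP promoters. Of 14, 13 were tested in 2MUT, with 2 higher and 2 lower and a median of 0.02, and 11 with 2-HG, with 3 higher and 3 lower and a median of 0.06. The shares in 2MUT were near those of all tested genes. Rela, an NF-κB subunit, and Sp1 were called in neither experiment, with log2 fold changes of 0.09 and 0.02 in 2MUT (limma, Benjamini-Hochberg adjusted p = 0.49 and 0.97) and of 0.04 and 0.06 with 2-HG (adjusted p = 0.78 and 0.73), though Sp1 was called lower in 2MUT without Control 3, with a log2 fold change of -0.60. Fosl1, an AP-1 subunit, rose in both, from 51.8 to 92.7 RPM in 2MUT (log2 fold change 0.84, adjusted p = 0.00066) and from 18.8 to 37.1 RPM with 2-HG (0.94, adjusted p = 0.0015). Junb, another AP-1 subunit, fell in both, from 351 to 148 RPM (-1.24, adjusted p = 2.9e-06) and from 114 to 68.1 RPM (-0.73, adjusted p = 0.0025). In 2MUT, Ets2 rose from 87.0 to 206 RPM (1.24, adjusted p = 3.0e-05) and Jun fell from 186 to 145 RPM (-0.35, adjusted p = 0.016), the latter lost without 2MUT 1 or 2MUT 2. With 2-HG, Jun rose from 97.2 to 149 RPM (0.62, adjusted p = 0.0020), a call kept with each library left out. Fos fell with 2-HG from 15.2 to 5.15 RPM (-1.40, adjusted p = 9.4e-05) and Runx2 from 41.8 to 25.1 RPM (-0.76, adjusted p = 0.031), the latter lost without 2-HG(-) 1 or 2-HG(-) 3 and with a log2 fold change of -0.47 without 2-HG(+) 1. Without Control 3 the counts in 2MUT were 3 higher and 3 lower.

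**Figure D5:**
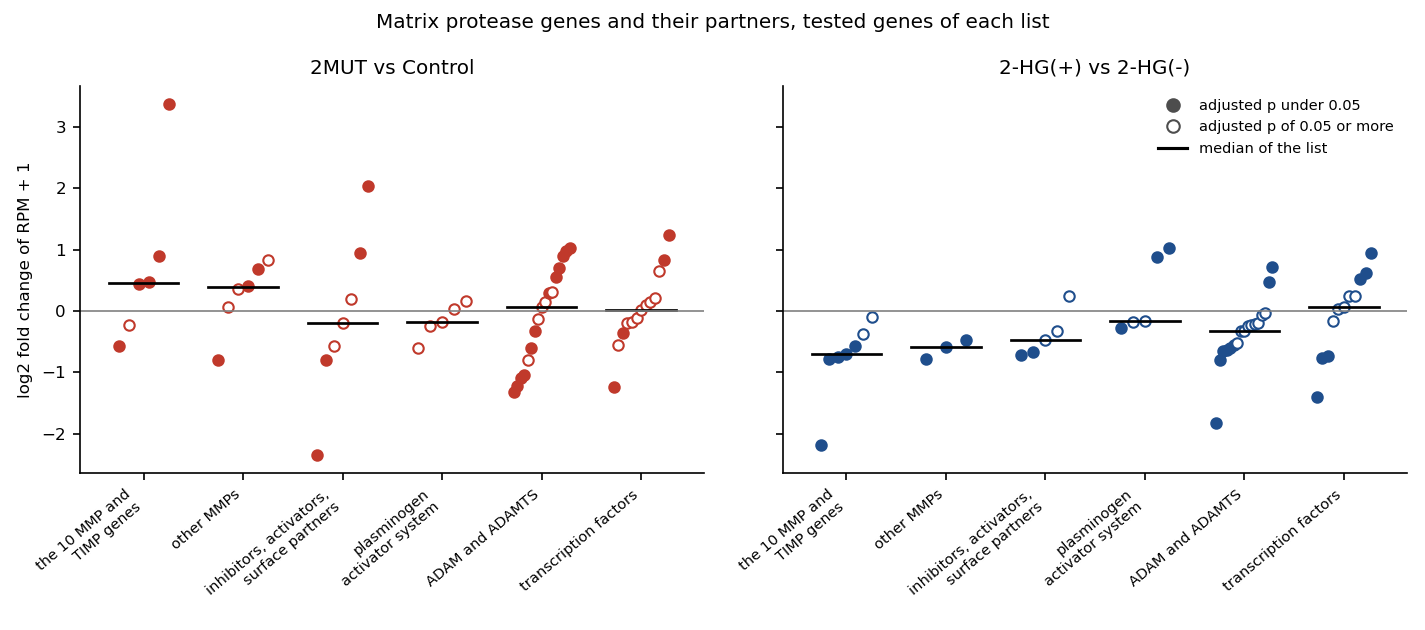
Log2 fold changes of RPM + 1 of the tested genes of 6 lists in the 2 comparisons, with filled points where the adjusted p was under 0.05 and the median of each list as a black bar. The tested MMP and TIMP genes of the 10 have a median of 0.46 in 2MUT and of -0.70 with 2-HG, and the further MMPs of 0.39 and -0.59.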

How the data were processed

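RNA-seq values of 10 genes were taken from 2 tables, 6 libraries each. The 10 genes and the gene lists were chosen with earlier results of these data known. Reads of Ion AmpliSeq libraries were aligned by the authors to the AmpliSeq mouse reference (TMAP) and counted by the AmpliSeqRNA plug-in. The deposited unit is RPM, the reads of a gene per 1000000 counted reads. The genome build is not given in the sources used here. For values of up to 1000 reads, 100% were whole multiples of 1 read within 0.1 read, which gave reads and depths. All columns had a condition.

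Tests used limma 3.58.1 in R 4.3.3, with a mean-variance trend, on log2(RPM + 1) of genes whose mean reached 1 RPM, and Benjamini-Hochberg adjustment over all genes (threshold 0.05). The study's own test was per gene and unmoderated. All 10 genes are named, with, from each list, at most the 4 largest changes past the threshold, and the 3 genes most like Timp2 and Timp3. An item covered by this rule is not reported here. Mmp16, Reck, Plau, Serpinf2, Fn1, Rela, Sp1, Adamts2, Adamts7 and Adamts14 were named after their values were seen, and so was Mmp19 for its difference between the changes. Alternatives were edgeR 4.0.16 and DESeq2 1.42.0 on the recovered reads, 0.1 added in place of 1, no filter, a filter at 10 RPM, median-of-ratios scaling, quantile normalization, a block for the replicate number, an unmoderated test and leaving out each library. Intervals are exact 95% intervals for counts and limma's 95% intervals for changes. Replicates differed by more than sampling noise (chi-square per degree of freedom from 5.57 to 31.4). The limma and edgeR tests within each experiment were also run on simulated data, with the outcome not given here. Promoters come from RefSeq and gene positions from GENCODE M21, both on GRCm38. pandas 2.3.3, scipy 1.17.1 and matplotlib 3.10.9 served for tables, intervals and plots.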

Additional observations from a re-analysis of the deposited data

Results flagged for a closer look

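The change in 2MUT differed from the change with 2-HG for 5 genes, each by limma's test of the difference over the 12 libraries with Benjamini-Hochberg adjustment. Of all 9611 genes tested in both, 39.4% passed, 19.9% in the direction of these 5 and 19.5% in the other. The difference was 1.18 for Mmp2 (adjusted p = 0.0044), 1.04 for Mmp11 (adjusted p = 0.00044), 4.08 for Timp2 (adjusted p = 0.0020), 1.67 for Timp3 (adjusted p = 1.2e-05) and 1.19 for Mmp19 (adjusted p = 0.00045), all on the log2(RPM + 1) scale and all with a rise in 2MUT and a fall with 2-HG. Transgene expression and 24 h of treatment were carried out as separate experiments, so the agent and the experiment cannot be told apart. Groups of 3 libraries were too small for a test of single libraries. Leaving out 2MUT 2 moved the difference of Timp2 to 5.15 (adjusted p = 1.5e-07), and it lay between 3.48 and 4.33 without each other library.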

How the results depend on the processing

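Of the settings tried, the unmoderated per-gene test moved the counts over all genes by more than 1.5 times. It called 1021 genes higher and 1223 lower in 2MUT, and 1098 higher and 1139 lower with 2-HG, and of the 10 genes it called 2 higher and 0 lower in 2MUT and 2 lower with 2-HG. Without the filter, 2 of the 10 were lower in 2MUT, because Mmp9 was then tested, through Control alone. With each library left out, 1 to 2 were lower in 2MUT, for the same reason. Timp1 turned in direction without 1 library, to 0.039 in 2MUT (Control 2), to 0.017, 0.047 and 0.19 with 2-HG (2-HG(-) 1, 2-HG(-) 3 and 2-HG(+) 1), and in the difference between the changes to 0.13, 0.11 and 0.0395 (Control 2, 2-HG(-) 2 and 2-HG(+) 2). Its range over the libraries left out was -0.42 to 0.039 in 2MUT, -0.34 to 0.19 with 2-HG and -0.42 to 0.13 in the difference. Mmp2 in 2MUT and Timp2 with 2-HG lost their calls without the filter (adjusted p = 0.055 and 0.058, limma), and Mmp14 with 2-HG gained one under quantile normalization (-0.42, adjusted p = 0.030). In each of these the cause was not tested. With 1 library left out, the lone spread of a group of 2 was pooled with the other group by limma.

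Replicate numbers gave no clear sign of a pairing of the libraries, which groups of 3 cannot exclude. Same-numbered libraries had correlations of their deviations from the group means of 0.10, 0.09 and 0.05 in the 2MUT experiment. In the 2-HG experiment these were -0.55, -0.19 and 0.06. Control 1 and Control 2 were most like the 2MUT library of the same number, whereas Control 3 and the 2-HG(-) libraries had another best match. With the replicate number as a block, 4 of the 10 genes were higher and 1 lower in 2MUT, 5 were lower with 2-HG and 4 passed in the difference, the counts obtained without it. The other settings, edgeR and DESeq2 included, changed none of the counts of the 10 genes by more than 1.5 times. Scaling moved the median of all genes by less than 0.1. Depth limits Mmp3, Mmp10 and Mmp13, and Mmp9 in 2MUT. How well the targets of Mmp3, Mmp10 and Mmp13 are amplified was not tested.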
